A study of Arabidopsis thaliana with 28 samples.

Results

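The regions described here are windows of the Arabidopsis thaliana genome that carry almost no DNA methylation, lie away from any locus of RNA-directed DNA methylation (RdDM), and are nevertheless listed by the authors as transcribed by RNA polymerase V (Pol V). They were taken from the authors' list of Pol V-transcribed windows outside RdDM, keeping those with no RdDM window starting within 1000 bp of their own start and with a Col-0 methylation level below 5% in each of the CG, CHG and CHH contexts. The rule kept 58122 of the 794311 windows of 200 bp that tile the genome every 150 bp, or 7.32%. They made up 42.6% of the 136405 windows outside RdDM that met the distance rule. A further 36227 of those 136405 windows had no methylation level in at least 1 context and could not be placed.

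Pol V is a plant-specific RNA polymerase whose largest subunit is NRPE1. Its transcripts stay at chromatin and act as scaffolds: small interfering RNAs loaded into AGO4 pair with them, and the DNA methyltransferase DRM2 is brought to the site. The chromatin remodeller DRD1 and the hinge-domain protein DMS3 belong to the DDR complex, which Pol V needs to engage chromatin, and SUVH2 and SUVH9 bind methylated DNA and recruit it there. SPT5L is an elongation factor-like protein that travels with Pol V and binds AGO4. Because recruitment through SUVH2 and SUVH9 reads existing methylation, the transcription of unmethylated DNA and the factors it needs are the question these windows address.

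RNA bound by Pol V was measured by IPARE, in which RNA is immunoprecipitated with an antibody against NRPE1 and the 5′ ends of the transcripts are sequenced. The 24 IPARE libraries came from 18-day-old seedlings of the Columbia ecotype in 11 genotypes and 6 sets, which the count table names by a tag. The untagged set held Col-0 (wild type), nrpe1 and spt5l. Set gp2 held Col-0 and ago4, and gp3 held Col-0, nrpe1, spt5l and ago4. Set gp4 held the double mutant suvh2/suvh9 and its single mutants suvh2 and suvh9, with Col-0, nrpe1, dms3 and drd1. Sets gp5 and gp6 each held Col-0, nrpe1, dms5-1 and drd3-3. The gene table lists DMS5 and DRD3 as other names of NRPE1, so dms5-1 and drd3-3 are further alleles of the Pol V subunit. The labels give no allele for the other mutants and do not say whether libraries of a genotype came from separate plants, so the p-values reflect only how far these libraries spread. DNA methylation was measured in Col-0 and nrpe1 leaves at 3.5 weeks.

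The windows were selected on Col-0 methylation and, through the lists, on counts: the labels name wild type and nrpe1 of gp3, gp4 and the untagged set for the lists. Every window had a read in at least 1 of those Col-0 libraries, and these Col-0 values are high by choice. They are given as a description only. Tests used the libraries outside the lists, which are Col-0 of gp2, gp5 and gp6, nrpe1 of gp5 and gp6, and the mutants. All mutants are compared with the same 3 Col-0 libraries, so their comparisons are not independent of each other. Total counts per library ran from 785943 to 6957714, of which 25.5% to 70.1% fell in ribosomal DNA. Levels are therefore given per 1000 counts in reference windows, those listed as not transcribed by Pol V, without ribosomal DNA. These held 222447 to 1651872 counts per library, and the distal unmethylated windows held 6670 to 96684. As a check of the genotypes, the level in RdDM windows ran from 863 to 2661 in the 6 Col-0 libraries, from 79.5 to 221 in the 5 nrpe1 libraries, and stood at 67.4 and 81.7 in dms5-1 and at 217 and 265 in drd3-3.

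The windows were spread over all 5 chromosomes, at 6.5% to 7.91% of each chromosome's windows. Per megabase the share ran from 0.015% to 12.8% with a median of 8.62%, the lowest on chromosome 4 in a megabase where RdDM windows made up 78.5%. The distal windows formed 36198 runs of adjacent windows, 57.8% of them a single window and the longest 13 windows. Their median distance to an RdDM window was 5550 bp. Of the windows, 73.8% had a measured level of 0 in all 3 contexts in Col-0, and 95.9% of the 50533 with a full set of levels in nrpe1 were below 5% in every context there too.

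Relative to genes, 30034 windows (51.7%) were centred in a protein-coding gene, 21255 (36.6%) touched no annotated gene, 216 (0.372%) overlapped a tRNA, snoRNA, snRNA or rRNA gene, and 6617 (11.4%) fell elsewhere. Windows touching no gene were more common than among the 247209 windows with the same distance and methylation limits that the authors listed as not transcribed by Pol V, of which 11.4% touched none. They were less common than in RdDM windows, at 50.5%. These shares describe the lists and carry no test. The 21255 windows outside genes lay close to genes all the same: the median distance to the nearest gene was 503 bp, and 74.2% were within 1 kb. The labels and headers do not say that counting used strand, so overlapping and antisense transcripts cannot be told apart.

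The reads were sparse. In the 3 Col-0 libraries outside the lists together, 34926 of the 58122 windows (60.1%) held no read, 18.2% held 1, 16.1% held 2 to 4, 3.88% held 5 to 9, and 985 windows (1.69%) held 10 or more. Only 1786 windows (3.07%) had a read in each of the 3. A window with a read in Col-0 gp2 had one in Col-0 gp5 in 30% of cases, against 11.2% for a window without. In the 2 nrpe1 libraries outside the lists, 88.3% of the windows held no read, but these libraries are fewer and held fewer reference counts on average.

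Where the windows touched no gene, the nrpe1, dms5-1 and drd3-3 libraries outside the lists had levels several-fold below the mean of the Col-0 libraries outside the lists. Of the nrpe1 libraries used for the lists, the untagged one was the highest at 4.42. The level was 10 in Col-0 gp2, 9.25 in gp5 and 5.97 in gp6, and 1.18 in nrpe1 gp5 and 1.81 in nrpe1 gp6. Every Col-0 library lay above both nrpe1 libraries. Per window, in counts per 1000000 reference counts (CPMR), this was 0.396 ± 0.101 (SD, n = 3) in Col-0 against 0.0704 ± 0.0212 (SD, n = 2) in nrpe1. The difference was 5.62-fold, a log2 ratio of −2.49 (SE 0.389), with p = 0.1 in an exact two-sided permutation test. That is the smallest p that 3 libraries against 2 can give, and it became 0.192 after Benjamini-Hochberg adjustment over 25 comparisons, so the threshold of 0.05 could not be reached. Within sets, Col-0 exceeded nrpe1 7.86-fold in gp5 and 3.29-fold in gp6.

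The other NRPE1 alleles also lay below Col-0. The level outside genes was 1.80 and 1.62 in dms5-1 (gp5 and gp6), 4.81-fold below Col-0 (log2 ratio −2.27, SE 0.244, exact permutation p = 0.1). It was 2.03 and 2.05 in drd3-3, 4.02-fold below (log2 ratio −2.01, SE 0.232, exact permutation p = 0.1). Neither allele overlapped Col-0, and both lay within or just above the range of the nrpe1 libraries of the same sets. Of the 21255 windows, 96.5% had no read in the 2 nrpe1 libraries outside the lists, against 65% in the 3 Col-0 libraries outside the lists. Depth differed: the mean reference count was 378479 in these nrpe1 libraries and 555760 in these Col-0 libraries. In any of the 5 nrpe1 libraries 18296 windows (86.1%) had none. That figure is a description only, since the other nrpe1 libraries were used for the lists. Scaling to the library total without ribosomal DNA, in which RdDM transcripts count as depth, reduced the 3 log2 ratios to −1.38, −1.16 and −1.13 but kept their direction.

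**Figure D1:**
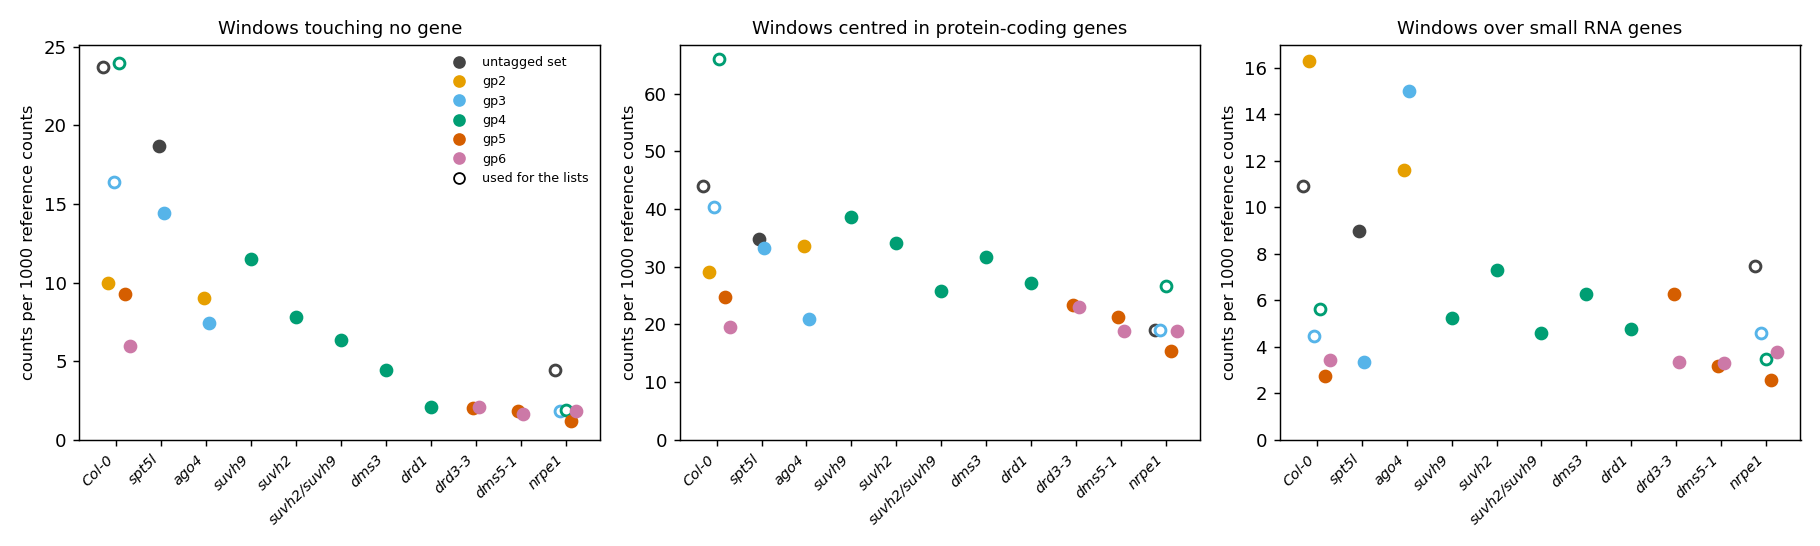
Level of the distal unmethylated windows in each of the 24 libraries (counts per 1000 reference counts), split into windows touching no gene, windows centred in protein-coding genes and windows over small RNA genes. Each point is 1 library, coloured by set; open points are Col-0 and nrpe1 libraries used for the window lists. Outside genes the nrpe1, dms5-1 and drd3-3 libraries of gp5 and gp6 sit between 1.18 and 2.05, below the Col-0 libraries outside the lists at 5.97 to 10. In protein-coding genes the same mutant libraries sit between 15.4 and 23.4, and these Col-0 libraries at 19.5 to 29.1.

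Inside protein-coding genes the difference in counts between these Col-0 and nrpe1 libraries was small. The level was 29.1, 24.8 and 19.5 in Col-0 gp2, gp5 and gp6 and 15.4 and 18.8 in nrpe1 gp5 and gp6. The ranges were separate by a narrow margin, and the difference was 1.42-fold (log2 ratio −0.50, exact permutation p = 0.2). For dms5-1 the log2 ratio was −0.27 and for drd3-3 −0.06, with both ranges overlapping Col-0. The contrast between locations was itself tested: the level outside genes relative to that inside protein-coding genes was lower than in Col-0 by a log2 ratio of −1.99 in nrpe1 (SE 0.189), −1.99 in dms5-1 and −1.95 in drd3-3, each without overlap and each at the smallest exact permutation p of 0.1.

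Unmethylated windows touching no gene that the authors listed as not transcribed by Pol V served as a background measured the same way. They also had fewer counts in nrpe1, by 1.64-fold (log2 ratio −0.71, exact permutation p = 0.2). In dms5-1 and drd3-3 their log2 ratios were −0.84 and −0.75. Inside protein-coding genes the background had 0.82, 0.661 and 0.562 CPMR per window in Col-0 gp2, gp5 and gp6. It had 0.594 and 0.705 there in nrpe1 gp5 and gp6. The background thus also differed by location, and the contrast between locations was not tested against it. The difference was larger in the distal unmethylated windows: relative to that background their log2 ratio to Col-0 was −1.78 in nrpe1, −1.42 in dms5-1 and −1.26 in drd3-3, each without overlap at p = 0.1 in the exact permutation test.

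Outside genes, the ratio of Col-0 to nrpe1 was larger at greater distance to a gene and showed no steady course with distance to an RdDM window. Col-0 exceeded nrpe1 4.27-fold in the 7825 windows up to 250 bp from a gene, 5.74-fold in the next 4132 up to 500 bp, 8.26-fold in the 4420 from there to 1000 bp, and 8.23-fold in the 4878 beyond that. Across these bins the Col-0 mean went from 0.438 to 0.354 CPMR per window and the nrpe1 mean from 0.103 to 0.0429. The remaining nrpe1 counts were thus concentrated near genes. By distance to an RdDM window the ratio was 6.14, 6.01, 4.80 and 5.66 from the nearest bin to the farthest, and by chromosome it ran from 5.16 to 6.11. No test was run across bins.

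**Figure D2:**
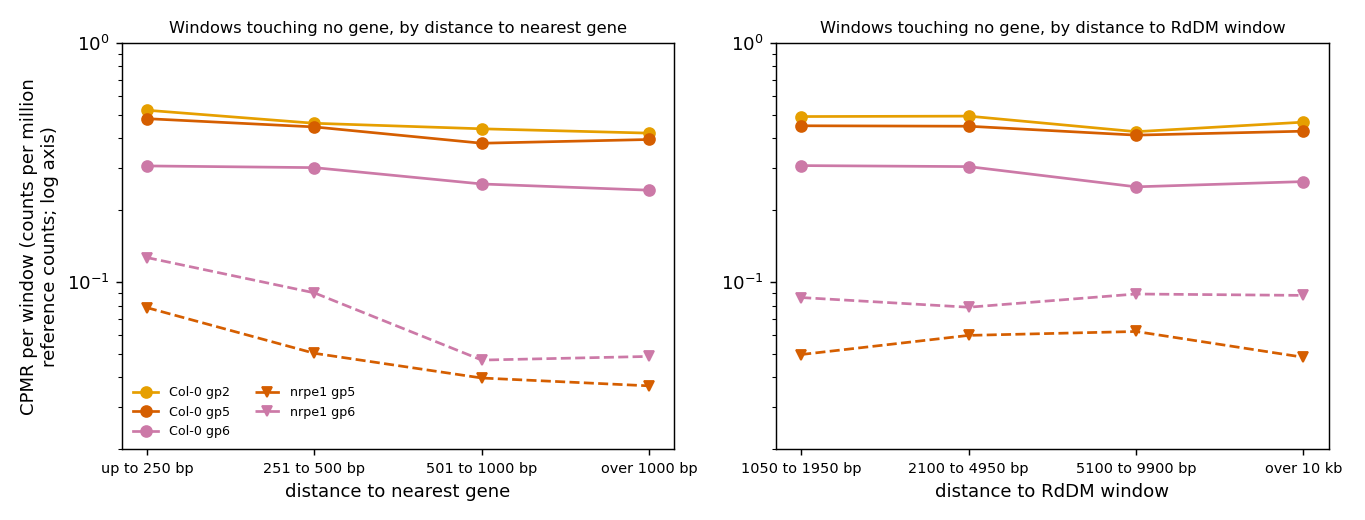
CPMR per window (log axis) in windows touching no gene, by distance to the nearest gene (left) and to the nearest RdDM window (right), for the Col-0 libraries (circles, solid lines) and nrpe1 libraries (triangles, dashed lines) outside the lists. The nrpe1 values fall with distance from genes while the Col-0 values change little, and neither moves steadily with distance from RdDM windows.

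The 5 genotypes of gp4 have 1 library each and are described without a test. Among them the DDR mutants were lowest outside genes: the level was 2.07 in drd1 and 4.45 in dms3. It was 6.32 in the suvh2/suvh9 double mutant, 7.82 in suvh2 and 11.5 in suvh9, against 1.89 in nrpe1 and 24.0 in Col-0 of the same set. The exact Poisson 95% intervals, which cover counting error only, were 1.99 to 2.16 in drd1, 4.31 to 4.6 in dms3, 6.15 to 6.49 in the double mutant, 7.63 to 8.01 in suvh2 and 11.2 to 11.8 in suvh9. The drd1 library was thus close to nrpe1, and suvh9 was the highest mutant. The background windows outside genes, those listed as not transcribed by Pol V, were also highest in suvh9: their level was 11.3 there, 8.58 in the double mutant, 8.53 in suvh2, 6.92 in dms3, 6.42 in drd1, 6.6 in nrpe1 and 5.44 in Col-0 of gp4. Their part in the order of the mutants was not tested. As a share of the gp4 Col-0 level, these were 8.65% in drd1, 18.6% in dms3, 26.4% in the double mutant, 32.6% in suvh2 and 47.9% in suvh9. All 5 shares are low by choice of the windows, since gp4 Col-0 was used for the lists, but their order among themselves is not set by it. Beside the 3 Col-0 libraries outside the lists (5.97 to 10), drd1 and dms3 lay below, suvh2 and the double mutant within, and suvh9 above, although set and genotype cannot be told apart there.

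At RdDM windows touching no gene the order of these libraries was the same, but the shares differed in size: they kept 7.21% (drd1), 8.75% (dms3), 14.5% (double mutant), 41.7% (suvh2) and 102% (suvh9) of gp4 Col-0. At the distal unmethylated windows dms3, the double mutant and drd1 kept larger shares than these, and suvh2 and suvh9 smaller ones. The gp4 Col-0 library behind these shares helped choose the distal windows, and with 1 library each the differences have no replicate check. Among all 58122 windows the level was 36.7 in drd1, 46.1 in dms3, 40.8 in the double mutant, 54.1 in suvh2 and 60.9 in suvh9, against 34.1 in nrpe1 and 106 in Col-0 of gp4.

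In mutants of SPT5L and AGO4, which act with or after Pol V transcription, the level outside genes was within or above that of the Col-0 libraries outside the lists. The level was 18.7 and 14.4 in spt5l (untagged set and gp3) and 8.99 and 7.43 in ago4 (gp2 and gp3). Both spt5l libraries lay above the Col-0 libraries outside the lists, by a log2 ratio of 1.00 (SE 0.300, exact permutation p = 0.1), but at 79.0% and 87.9% of the Col-0 level of their own sets, which were used for the lists. The direction for spt5l therefore depends on the Col-0 libraries chosen. The background windows outside genes were higher in spt5l by nearly as much (log2 ratio 0.89, exact permutation p = 0.1, no overlap), and relative to them the log2 ratio was 0.11 with overlapping groups (exact permutation p = 0.3). For ago4 the log2 ratio was −0.01 (SE 0.270, exact permutation p = 1) and the ranges overlapped. Relative to the background windows, whose log2 ratio was 0.25, it was −0.25, with ago4 below each of these Col-0 libraries (exact permutation p = 0.2). It stood at 89.8% of Col-0 in gp2, where the Col-0 library was not used for the lists, and at 45.3% in gp3, where it was.

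**Figure D3:**
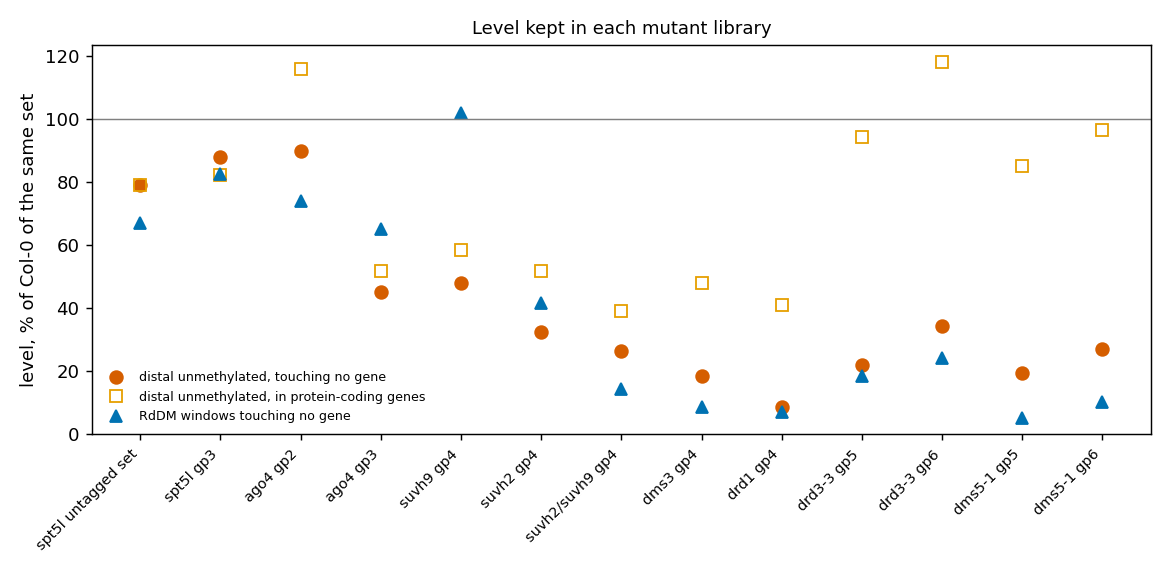
Level in each mutant library as a percentage of Col-0 in the same set, for distal unmethylated windows touching no gene (filled circles), those in protein-coding genes (open squares) and RdDM windows touching no gene (triangles). Outside genes the distal windows keep 8.65% in drd1 and 19.4% to 34.4% in dms5-1 and drd3-3, and 79.0% or more in spt5l. Col-0 of the untagged set, gp3 and gp4 was used for the lists, which lowers the percentages of those sets for the distal windows.

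Over all 58122 windows, genic ones included, the differences were smaller. The level was 59.9, 40.9 and 31.7 in Col-0 gp2, gp5 and gp6, a mean of 44.2 ± 14.4 (SD, n = 3), and 20.4 and 26.3 in nrpe1 gp5 and gp6. The nrpe1 libraries lay below all 3 Col-0 libraries, with a log2 ratio of −0.88 (SE 0.32, exact permutation p = 0.2, adjusted p = 0.316 over 30 comparisons). Scaled to the library total without ribosomal DNA instead, the log2 ratio was 0.22, so this direction depends on the scaling. The levels were 27.9 and 25.3 in dms5-1 (log2 ratio −0.68, p = 0.2 by the same exact test) and 34.1 and 30.7 in drd3-3 (−0.40, exact p = 0.4). They were 69.8 and 56.9 in spt5l (0.56, exact p = 0.3) and 58.5 and 46.6 in ago4 (0.29, exact p = 0.5), all with ranges that overlapped Col-0 except dms5-1.

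Breadth was compared as the share of windows with at least 1 read once each library was thinned to the smallest reference count, 222447. This was 11.6%, 10.7% and 8.10% in Col-0 gp2, gp5 and gp6 and 4.66% and 5.56% in nrpe1 gp5 and gp6, a log2 ratio of −0.97 (SE 0.20) without overlap and an exact permutation p of 0.1. It was 5.57% and 5.29% in dms5-1 and 6.32% and 4.86% in drd3-3, also below every Col-0 library, and 16.1% and 14.3% in spt5l and 11.8% and 9.37% in ago4. Single libraries of gp4 gave 6.96% (drd1), 8.73% (dms3), 9.09% (double mutant), 10.6% (suvh2) and 12.8% (suvh9). In the unmethylated windows listed as not transcribed by Pol V, the share was 8.20%, 7.50% and 6.55% in the same Col-0 libraries. The distal unmethylated windows were above that background in each of these Col-0 libraries. Among windows touching no gene the share was 8.45%, 8.01% and 5.34% in Col-0 and 1.06% and 1.55% in nrpe1.

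**Figure D4:**
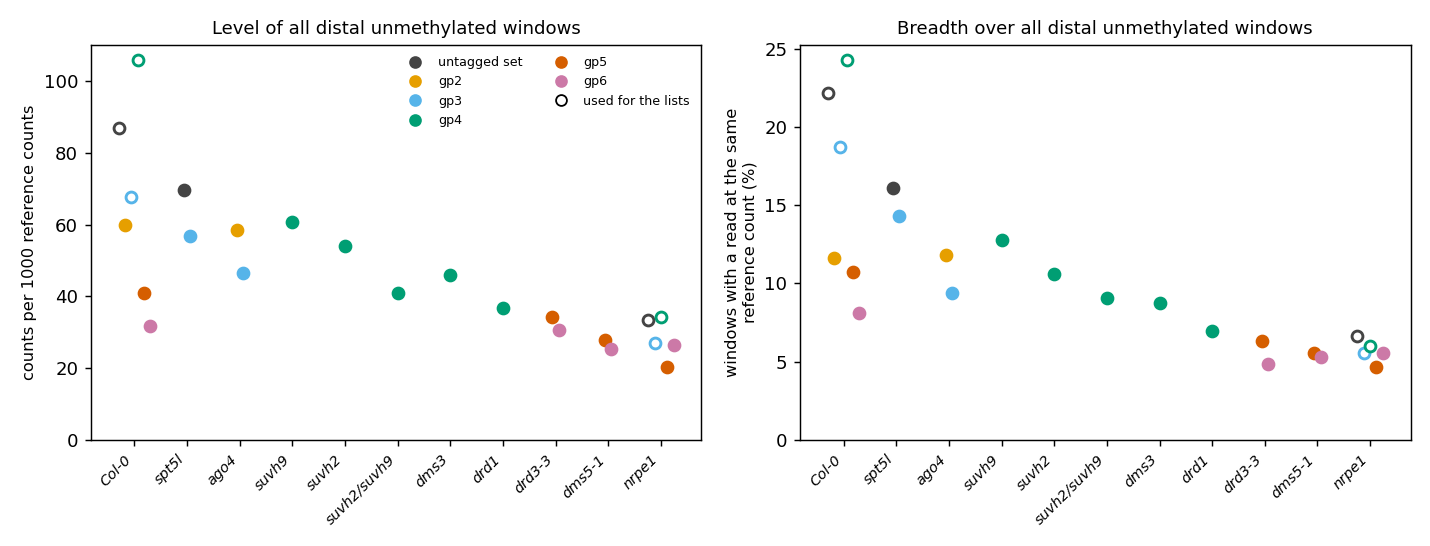
Level (left, counts per 1000 reference counts) and breadth (right, percentage of windows with a read after thinning to the same reference count) over all 58122 distal unmethylated windows, 1 point per library, coloured by set. Open points are the Col-0 and nrpe1 libraries used for the lists. Breadth in nrpe1, dms5-1 and drd3-3 of gp5 and gp6 lies between 4.66% and 6.32%, below the Col-0 libraries outside the lists at 8.10% to 11.6%.

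The distance between Col-0 and the NRPE1 mutants was smaller at the distal unmethylated windows than at RdDM windows or near them. Among windows touching no gene, their level relative to RdDM windows was higher than in Col-0 by a log2 ratio of 1.11 in nrpe1, 1.61 in dms5-1 and 0.35 in drd3-3. Relative to windows outside RdDM but within 1000 bp of an RdDM window, the log2 ratios were 0.99, 1.35 and 0.46. All 6 had groups without overlap and the smallest exact permutation p of 0.1. Relative to the 42219 distal windows outside RdDM with Col-0 CG methylation of 5% or more, genic ones included, the log2 ratios were 0.51, 0.51 and 0.56. Each had an exact permutation p of 0.2 without overlap. In that class too the location mattered: Col-0 exceeded nrpe1 32.1-fold and 23.5-fold in gp5 and gp6 in the 464 windows outside genes. Inside protein-coding genes it was 3.1-fold and 1.77-fold. In absolute terms the RdDM windows held 1381, 1259 and 863 counts per 1000 reference counts in Col-0 gp2, gp5 and gp6, against 59.9, 40.9 and 31.7 in all distal unmethylated windows, which are fewer in number (58122 against 158314). One window step inside the distance limit the Col-0 mean was 0.769 CPMR per window, and just outside it, at 900 bp, 0.813. Windows whose highest Col-0 methylation level was 4% to 5% (226 windows) had 1.02, and those at 5% to 6% (219 windows) 1.04.

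Windows over small RNA genes behaved differently from the rest. These 216 windows, 188 of them over a tRNA gene, held 27.2% of the counts of all distal unmethylated windows in Col-0 gp2, 19.8% and 32.2% in ago4, and between 5.32% and 22.3% in the other libraries. Their level was 16.3 in Col-0 gp2, 2.72 in gp5 and 3.42 in gp6, and 2.57 and 3.76 in nrpe1 gp5 and gp6. Col-0 gp2 stood far above the other Col-0 libraries, and without it the genotypes overlapped. In ago4 the level was 11.6 and 15. Without these windows the level over the rest was 43.6, 38.2 and 28.2 in Col-0 and 17.8 and 22.5 in nrpe1, a log2 ratio of −0.85 (exact permutation p = 0.2).

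Single regions were tested with edgeR's quasi-likelihood test on counts summed over runs of adjacent windows, with p-values adjusted (Benjamini-Hochberg) over all 20698 regions of the genome that had enough counts. Only 370 of the 36198 distal unmethylated regions did (1.02%), so these are the most abundant and hold 33.6% of the Col-0 counts. In nrpe1, 81 of the 370 were lower (21.9%) and 3 higher, against a background of 77.4% lower and 0.193% higher over all regions tested. The counts depended on single libraries: without Col-0 gp2, 27 of 340 tested were lower, against 14384 of 19224 over all regions. Leaving out nrpe1 gp5 left 1 nrpe1 library, with a median log2 ratio of −0.77 over the 712 distal unmethylated regions tested there. With the set as replicate block, 8 of the 370 were lower, against 12494 of 20698 over all regions. The median log2 ratio over the 370 was −0.63, but −0.04 without Col-0 gp2, and 0.59 with TMM scaling. By location, 6 of 22 tested regions touching no gene were lower, 25 of 227 in protein-coding genes, and 44 of 108 over small RNA genes. Leaving out regions over small RNA genes left 37 lower in nrpe1 of 262 tested.

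In dms5-1, 71 regions were lower and 10 higher (background 76.8% and 0.44%), and in drd3-3, 33 were lower and 20 higher (background 60.3% and 1.45%). In ago4, 6 were lower and 33 higher (background 7.27% and 1.78%), 16 higher without the small RNA regions. In spt5l, 3 were lower and 12 higher (background 2.54% and 1.04%). Among the tested distal unmethylated regions the share lower in nrpe1, dms5-1 and drd3-3 was thus well under the share over all tested regions. Most of the latter were RdDM regions, 12772 of 20698, of which 12547 were lower in nrpe1, 12515 in dms5-1 and 9756 in drd3-3. Of the 3744 tested regions listed as not transcribed by Pol V, 285, 249 and 139 were lower. These are smaller shares than in the distal unmethylated regions, and no test compared them. On simulated counts, 50 regions were set to each change among 20050 tested regions left unchanged. The test called only 2% of those set 4-fold lower in nrpe1 and 36% of those set 8-fold lower. In the data 16025 of 20698 regions were lower in nrpe1, so the adjustment was less strict there. The simulated shares are therefore not the power of the fit reported here. Power in the distal unmethylated regions was not measured, so regions not called lower are not shown to be unchanged.

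The comparison of nrpe1 used 5 libraries: Col-0 gp2, gp5 and gp6, and nrpe1 gp5 and gp6. The tested regions that stayed lower in nrpe1 whichever of these was left out numbered 9, a choice made after their values were seen. Leaving out an nrpe1 library left only 1 of that genotype. Their values are given in CPMR. The region within AT5G65610, a protein-coding gene (chr5:26219701-26219900, TAIR10), had 32.6, 22.1 and 16.3 in Col-0 gp2, gp5 and gp6, none in either nrpe1 library and none in dms5-1. It was at least 6.81-fold lower in nrpe1 over the summed counts, taking 3 counts over the group as the floor, with an adjusted p of 0.000336 in edgeR. It had 34.5 and 35.3 in ago4 and 23.4 and 23.8 in spt5l, so spt5l lay within the range of these Col-0 libraries and ago4 just above it. In gp4 it was at 0 in drd1 and dms3, 6.87 in suvh2, 35.9 in suvh9 and 3.54 in the double mutant.

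The region between ICME-LIKE2, an isoprenylcysteine methylesterase-like gene, and AT3G02420 (chr3:495301-495800) had 41.0, 29.4 and 35.8 in the same Col-0 libraries and none in nrpe1, dms5-1, drd3-3 or ago4. It was at least 9.38-fold lower in nrpe1 (adjusted p = 0.000619 in edgeR) and had 11.3 and 4.76 in spt5l. A similar pattern held between the snoRNA gene AT1G07593 and PUB26, which encodes a U-box protein (chr1:18428551-18428750). Its values were 31.5, 27.0 and 13 in Col-0, 0 in both nrpe1 libraries, and 0.605 and 0 in ago4, while spt5l had 38.2 and 42.0. The nrpe1 difference was at least 6.81-fold (adjusted p = 0.00062 in edgeR). A region at AT4G20690 and AT4G20700, a pair of overlapping protein-coding genes (chr4:11097751-11098250), had counts in more libraries. There Col-0 had 47.3, 53.9 and 22.8, nrpe1 4.09 and 0, ago4 3.63 and 7.85, and spt5l 31.3 and 42.0. All 3 regions were also lower in ago4, with adjusted p-values in edgeR of 0.000252, 0.000487 and 0.00942 in the order given, as was CYP706A1, described next (17.0 and 3.92 in ago4, adjusted p = 0.0144 in edgeR). Col-0 gp3 had no read in the regions beside AT3G02420 and PUB26, where nrpe1 gp3 had 2.45 and 0.

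The remaining 5 lay at the tRNA gene AT1G68970, at SGA2 (the histone chaperone ASF1A), at the long non-coding RNA genes AT1G09793 and AT1G09797, at the protein-coding gene AT4G32920, and at CYP706A1, a cytochrome P450 gene. In Col-0 gp2, gp5 and gp6 they had 28.4, 22.1 and 16.3 at AT1G68970, and 12.6, 19.6 and 26.1 at SGA2. AT4G32920 had 15.8, 9.81 and 29.3. All 3 regions were at 0 in both nrpe1 libraries outside the lists. Among the libraries used for the lists, SGA2 had no read in Col-0 gp3 but 6.12 in nrpe1 gp3. AT1G68970 had 2.29 in Col-0 gp4 and 1.8 in nrpe1 gp4. In the other sets used for the lists Col-0 lay above nrpe1 at both. At AT1G09793 the Col-0 values were 51.5, 61.3 and 45.6 and the nrpe1 values 10.2 and 3.73, and at CYP706A1 81.9, 46.6 and 48.8 against 12.3 and 7.47. In neither did drd3-3 pass the test: its values were 49.4 and 103 at AT1G09793 and 8.99 and 29.5 at CYP706A1, with adjusted p of 0.449 and 0.0652 in edgeR. At CYP706A1 dms5-1 did not pass either (50.2 and 33.4, adjusted p = 0.481 in edgeR), and nrpe1 gp4 had 93.8 there, above each of the tested Col-0 libraries. At AT1G09793 the gp4 values were 27.5 in Col-0, 25.3 in nrpe1, 58.2 in drd1 and 66.5 in dms3. In gp3 and the untagged set Col-0 lay above nrpe1 there.

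**Figure D5:**
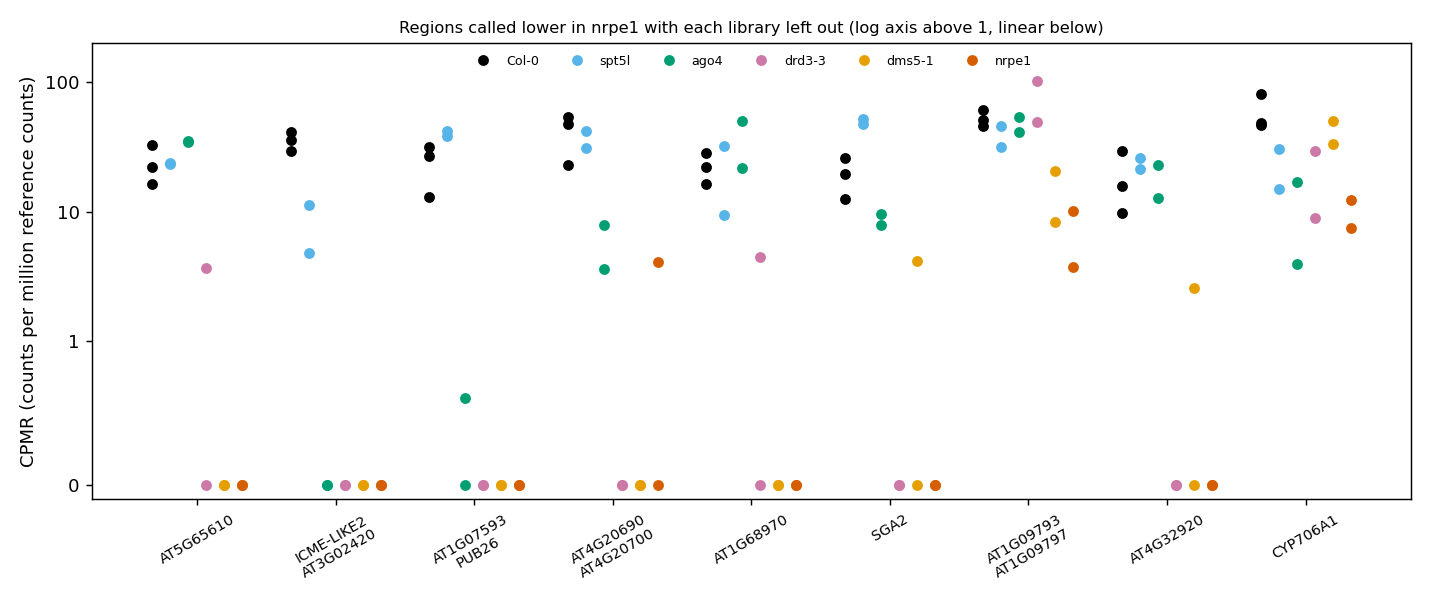
CPMR (axis logarithmic above 1 and linear below) in the 9 regions that stayed lower in nrpe1 with each Col-0 and nrpe1 library shown left out in turn. Each point is 1 library, for Col-0 gp2, gp5 and gp6 and the 2 libraries each of spt5l, ago4, drd3-3, dms5-1 and nrpe1. In each region every Col-0 library lies above both nrpe1 libraries; ago4 is at or near 0 between ICME-LIKE2 and AT3G02420 and beside PUB26.

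The 10 lower regions with the most Col-0 counts per base all overlapped tRNA genes and rested on Col-0 gp2. The region at AT1G20250 and VAB3 (chr1:7016401-7016750) had 1125 CPMR in Col-0 gp2, 90.7 in gp5 and 127 in gp6, against 45 and 149 in nrpe1. The nrpe1 values lay on either side of the Col-0 libraries other than gp2, although the region was called lower (log2 ratio −2.25, SE 0.775, adjusted p = 0.00789 in edgeR). The most abundant region of all, at the tRNA pseudogene AT3G20362 and AT3G20365, had 4145, 964 and 1211 in Col-0 and 1304 and 1038 in nrpe1, and did not pass the test (adjusted p = 0.152 in edgeR). At LHB1B2, a light-harvesting chlorophyll protein gene, and the overlapping AT2G08665, Col-0 had 399, 162 and 212 and nrpe1 253 and 243 (adjusted p = 0.933 in edgeR).

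The 3 regions higher in nrpe1 lay in protein-coding genes. At ESM1, the epithiospecifier modifier of glucosinolate breakdown, Col-0 had 16.8, 14.7 and 13 and nrpe1 69.5 and 29.9 (log2 ratio 1.74, SE 0.653, adjusted p = 0.0143 in edgeR). At AT1G72430, named SAUR78 in the gene table, Col-0 had 2.1, 9.81 and 6.51 and nrpe1 26.6 and 26.1 (log2 ratio 2.26, adjusted p = 0.0182 in edgeR). At PSAF, a photosystem I subunit gene, Col-0 had 15.8, 4.90 and 29.3 and nrpe1 53.2 and 44.8 (log2 ratio 1.61, adjusted p = 0.024 in edgeR). In all 3 the nrpe1 libraries lay above every one of these Col-0 libraries, but Col-0 gp4, used for the lists, had 75.7 at ESM1, against 142 in nrpe1 gp4, and 34.4 at AT1G72430, where nrpe1 gp4 had 9.02.

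The longest stretch, 13 windows over 2000 bp between the aquaporin gene NIP3;1 and AT1G31910 (chr1:11453401-11455400), showed how thin the signal was even where windows ran together. It had 12.6, 12.3 and 13 CPMR in Col-0 gp2, gp5 and gp6, 0 and 7.47 in nrpe1 gp5 and gp6, 4.18 and 5.14 in dms5-1 and none in drd3-3. In gp4, Col-0 had 61.9, nrpe1 1.80, drd1 5.38, dms3 8.32, suvh2 14.9, suvh9 14 and the double mutant 7.09. It held too few counts to be tested. Over the summed counts Col-0 exceeded nrpe1 4.77-fold, with a 95% counting interval of 1.17 to 41.9.

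Windows in or within 1 kb of genes of chosen lists held few counts, apart from those at photosynthesis genes. Of 22 RdDM pathway genes, 15 had such a window, with 21.0, 12.3 and 3.26 CPMR in total in Col-0 gp2, gp5 and gp6 and 6.13 and 3.73 in nrpe1. For maintenance and removal of DNA methylation it was 13 of 15 genes (23.1, 12.3 and 16.3 against 8.18 and 7.47). Photosynthesis genes, with 21 of 25, had 754, 228 and 241 in Col-0 and 366 and 273 in nrpe1, and the 11 housekeeping genes matched had 75.6, 71.1 and 94.4 against 53.2 and 105. The ranges of Col-0 and nrpe1 overlapped in the RdDM pathway, photosynthesis and housekeeping lists. Of 5 genes known as RdDM targets, 3 had such a window, with 2.1, 0 and 0 against 4.09 and 0. The photosynthesis and housekeeping lists held the most counts in both genotypes, and the part of messenger RNA in these counts was not tested.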

How the data were processed

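The deposited counts are whole reads per 200 bp window, step 150 bp, per the file headers; methylation levels are the authors' averaged fractions per window and context, and the class lists are the authors' own. The submitters' processing notes list TAIR10 as the build and Bismark, Bowtie2, cutadapt and UMI-tools as tools; how windows were classed, and the use of strand in counting, is not stated in the labels or headers. Windows and lists were chosen with earlier results of these data known. Levels were computed per 1000 counts in reference windows and compared by exact two-sided permutation tests, 3 libraries against 2 (10 splits). Regions (touching windows of 1 class, broken at 2 kb) were tested over 13 libraries with edgeR 4.0.16 in R 4.3.3, with DESeq2 1.42.0 as an alternative. The settings were filterByExpr with minimum count 10 and total 15, reference scaling, and Benjamini-Hochberg adjustment at a threshold of 0.05. The test was first tried on simulated counts of regions from the whole genome. It called 36% of regions set 8-fold lower in nrpe1 and 2% of those set 4-fold lower. For 8-fold and 4-fold higher it called 84% and 18%. Each change was set in 50 regions among 20050 tested unchanged ones, so these shares are not the power of the fit of the data. Ribosomal DNA (chromosome 2 below 12 kb and chromosome 3 from 14190000 to 14210000) was left out. Gene names and overlaps come from a RefSeq table of TAIR10.1; for 36 abundant genes the median Col-0 gp2 count was 242 at the listed place and 6 to 19.5 after shifts. Named regions are the 10 lower in nrpe1 with the most Col-0 counts per base (2 or more windows), the 5 with the most Col-0 counts, the 5 longest and all those higher in nrpe1; those lower with each library left out were added after the data were seen. Restricting the windows to those outside genes was set out earlier; their use as a comparison of their own, and the division of the rest by gene type, were added too. Intervals cover counting error only. Replicate libraries differed beyond sampling noise (chi-square per degree of freedom 4.32 or more). Sets were not treated as pairs in the main fit. Deviations of Col-0 and nrpe1 of the same set correlated at 0.356, 0.238, 0.289, 0.086 and 0.032 (untagged set, then gp3 to gp6). Between different sets the correlations ran from −0.315 to 0.105. The values of gp5 and gp6 lay within that range, and those of the other sets above it. Methylation samples serve only to define the windows. No genome sequence was used here, so none is shown.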

Additional observations from a re-analysis of the deposited data

Results flagged for a closer look

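Within groups of 4 to 10 libraries, 21 of 76 groups tested had a library set apart from the others by a gap above Dixon's 95% critical value. Chance gives about 1 in 20 where groups are not chosen on their values. Most of these groups come from the 30 named regions, most of them chosen on counts in the same libraries. The rate of 1 in 20 therefore does not apply here. Of these, 9 concern Col-0 gp2 as the highest of 6 Col-0 libraries. Its share of counts over small RNA genes was 27.2%, and its counts per 1000000 reference counts (CPMR) were 1125 at AT1G20250 and VAB3, 1009 at AT2G02590 and AT2G02600, 450 at AT5G43450 and AT5G43455, 230 at AT5G15802 and AT5G15805, 205 at AT4G12070 and AT4G12065, 184 at AT4G26380 and AT4G26385, 177 at AT5G10525 and AT5G10530, and 4145 at AT3G20362 and AT3G20365. All 8 regions overlap a tRNA gene or tRNA pseudogene.

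The nrpe1 library of the untagged set was the highest of 5 nrpe1 libraries for the level of windows touching no gene (4.42 per 1000 reference counts), for the thinned share of those windows with a read (3.28%), and for CPMR at AT5G66568 and PSBO1 (412), AT3G20362 (2492), AT5G65610 (1.19), AT1G07593 and PUB26 (4.78) and AT1G68970 (10.8). This library was used for the window lists; it enters only the fits and tests over all libraries.

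Col-0 gp4, also used for the lists, was the highest Col-0 library at NIP3;1 and AT1G31910 (61.9), AOC3 (32.1) and ESM1 (75.7). At AT2G40460 only nrpe1 gp5 of the nrpe1 libraries had a count (2.04). At AT1G72430 nrpe1 gp4 was the lowest nrpe1 library (9.02). The causes were not tested.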

How the results depend on the processing

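Outside genes, the lower level in nrpe1, dms5-1 and drd3-3 kept its direction under every alternative run, all of them chosen after seeing the data. Leaving out 1 library at a time gave log2 ratios of −2.80 to −2.18, −2.5 to −2.12 and −2.24 to −1.86. With all libraries, including those used for the lists, they were −2.71 (p = 0.00216), −2.95 (p = 0.0357) and −2.69 (p = 0.0357, exact permutation tests), which is no independent support. For spt5l the range was 0.77 to 1.19, and −0.26 when paired by set (replicate block), where the Col-0 libraries are those used for the lists; for ago4 it was −0.24 to 0.14, with 0.09 by library total without ribosomal DNA, −0.41 with capped reference windows, −0.69 with all libraries and −0.65 when paired by set.

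Over all windows, the library total without ribosomal DNA turned nrpe1 (0.22), dms5-1 (0.43) and drd3-3 (0.48) to higher. All libraries gave −1.12 in nrpe1 (exact permutation p = 0.0152). Pairing by set gave −0.29 for spt5l and −0.29 for ago4. For ago4, capped reference windows gave −0.11, windows outside genes −0.01 and all libraries −0.21. Leaving out 1 library gave −1.10 to −0.64 (nrpe1), 0.35 to 0.81 (spt5l), 0.08 to 0.54 (ago4), −0.90 to −0.44 (dms5-1) and −0.61 to −0.15 (drd3-3). The share of the Col-0 to nrpe1 difference kept within a set moved with the setting for each of the 12 mutant libraries: for drd3-3 gp5 it was 67.2% over all windows, 10.6% outside genes and −350% by library total without ribosomal DNA.

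Counts of regions called lower and higher depended on the fit. The distal unmethylated regions tested numbered 370 with the default filter and 13 libraries, 262 without small RNA regions and 850 with all 19 libraries. The looser filter tested 16218, single windows 332, and fits leaving out 1 library 340 to 838. Over all regions tested, nrpe1 was lower in 12494 of 20698 with the set as replicate block and 15711 of 20698 with DESeq2. It was lower in 19165 of 144412 with the looser filter. Without small RNA regions, 37 were lower in nrpe1, 27 in dms5-1 and 18 in drd3-3, and 16 higher in ago4. With TMM, which assumes that most regions do not change, lower and higher counts were 12 and 63 in nrpe1 (14352 and 1390 over all 20698 regions tested). They were 19 and 50 in dms5-1 (14829 and 1010 over all), and 3 and 115 in drd3-3 (6399 and 2219 over all). With the set as replicate block they were 8 and 0 in nrpe1 (0 higher also at an unadjusted p under 0.05, against 3 in edgeR without it), 0 and 0 in spt5l (27 and 4 unadjusted), 1 and 0 in ago4 (13 higher unadjusted), 2 and 1 in dms5-1, and 1 and 1 in drd3-3. Over all 20698 regions tested with the block, 9 were higher in nrpe1. It was 14 and 2 in spt5l, 52 and 6 in ago4, 11319 and 16 in dms5-1, and 5057 and 24 in drd3-3. With all 19 libraries of replicated genotypes they were 177 and 1 in nrpe1, 143 and 5 in dms5-1, 97 and 13 in drd3-3, and 0 lower in spt5l (36 unadjusted, 3 in the edgeR fit of 13 libraries). The 19 include the Col-0 and nrpe1 libraries used for the lists, so these counts are no independent support. Over all 33364 regions tested there, 24604 were lower and 38 higher in nrpe1. In dms5-1 it was 23779 and 69, and in drd3-3 it was 18333 and 228. In spt5l 551 were lower. DESeq2 called 51 lower in nrpe1, 45 in dms5-1 and 15 in drd3-3, 1 lower and 7 higher in spt5l, and 21 higher in ago4. Over all 20698 regions tested, it called 15558 lower in dms5-1 and 11823 in drd3-3, 525 lower and 333 higher in spt5l, and 290 higher in ago4. Its size factors in edgeR gave 6 higher in nrpe1, and 113 over all. A looser filter gave 6 higher in nrpe1, 8 lower in spt5l, 59 higher in ago4, and 16 lower and 31 higher in drd3-3. Over all 144412 regions tested there, 66 were higher in nrpe1, 534 lower in spt5l and 617 higher in ago4. In drd3-3 it was 10145 lower and 290 higher. Single windows, 332 tested, gave 12 lower and 21 higher in spt5l, 11 lower and 50 higher in ago4, and 32 higher in drd3-3. Over all 23521 windows tested there, it was 1242 and 1281 in spt5l, 3654 and 1099 in ago4, and 366 higher in drd3-3. Leaving out 1 library gave 14 to 102 lower and 3 to 5 higher in nrpe1, 1 to 9 and 2 to 21 in spt5l, 4 to 11 and 23 to 64 in ago4, 21 to 88 and 4 to 12 in dms5-1, and 4 to 55 and 10 to 33 in drd3-3. The causes were not tested. Depth also limits single regions: 60.1% of windows held no read in the 3 Col-0 libraries tested.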
